A study of Mus musculus with 4 samples.

Results

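Docetaxel given on top of ORIN1001 was compared with ORIN1001 alone in CD45+ cells sorted from 2153L mammary tumors. The comparison rests on 17705 of the 36287 cells kept in the series, 8760 in the ORIN1001 library and 8945 in the library of both drugs, called the combination here. Cells were kept when they had at least 200 detected genes and under 10% of UMIs from mitochondrial genes, and each was placed in a class by the marker genes it carried. UMIs are the counted RNA molecules of a cell. 2153L is a tumor from a genetically engineered mouse model, grown here in mammary fat pads of Balbc females. The ORIN1001 group received 150 mg/kg of ORIN1001, the docetaxel group 20 mg/kg of docetaxel, the combination group both at these doses and the vehicle group neither, for 8 days. Every group was 1 library, and the sources used here do not say how many mice stand behind it. The vehicle and docetaxel libraries are given beside the pair because docetaxel to vehicle is the same drug added without ORIN1001, and that ratio shares no library with this pair. With 1 library a group there is no spread between animals to set a difference against, so no test was run and no p-value is given. All 95% intervals, in parentheses after a value, cover counting error only.

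ORIN1001 inhibits the RNase of IRE1α, a stress sensor of the endoplasmic reticulum (ER) whose RNase cuts Xbp1 mRNA so that it can be spliced into the form that encodes the transcription factor XBP1s. XBP1s raises chaperones and folding enzymes of the ER, while PERK, another ER sensor, acts through the factor ATF4. Docetaxel is a taxane that binds tubulin, stabilises microtubules and blocks mitosis. Among tumor leukocytes, neutrophils are short-lived granulocytes that adapt to low oxygen through the HIF factors, macrophages and monocytes present antigen and secrete chemokines, and CD8 T cells kill target cells and acquire inhibitory receptors under lasting stimulation. Type I interferons act through the factor ISGF3, which binds a DNA element called ISRE.

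The libraries held 8464 to 10362 barcodes and 64257802 to 86383509 UMIs. Kept cells had median UMIs of 4245 in ORIN1001 and 4538 in the combination, and median mitochondrial shares of 0.449% and 1.26%. ORIN1001 and the combination shared 105 cell barcodes, 1.17% of those of the combination. Classes rest on marker gates, not on the authors' annotation. Doublets were kept in the values given, and 584 ORIN1001 cells (6.67%) and 787 combination cells (8.80%) that passed the gates of several lineages were set apart. The markers that set the gates are high in their classes by construction. Macrophage markers summed to 28883 CPM (counts of a gene per 1e6 counts of its class and library) in the ORIN1001 macrophages and 29790 CPM in those of the combination, against 354 and 643 CPM in neutrophils. All 5 erythroid markers were at 0 in neutrophils of both libraries. The cDC2 class carried monocyte markers at 2934 and 2316 CPM in ORIN1001 and the combination, beside 1609 and 2034 CPM of its own markers.

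Fewer of the combination cells were neutrophils, and more were T cells, dendritic cells (DCs), NK cells, monocytes and macrophages. Neutrophils were 50.9% of kept cells in vehicle, 47.9% in docetaxel, 66.2% (65.2 to 67.1) in ORIN1001 and 35.3% (34.3 to 36.3) in the combination, a log2 ratio of shares of combination to ORIN1001 of -0.91 (-0.97 to -0.84). The combination held the lowest neutrophil share of the 4 libraries and ORIN1001 the highest. Macrophages were 20.7% in vehicle, 18.6% in docetaxel, 10.2% (9.53 to 10.8) in ORIN1001 and 16.2% (15.4 to 16.9) in the combination, a log2 ratio of 0.67 (0.55 to 0.79). Because shares sum to the whole, a lower neutrophil share alone raises every other class. Outside the neutrophils, macrophages were 30.02% in ORIN1001 and 24.98% in the combination, a log2 ratio of -0.27 (-0.39 to -0.14), so their direction depends on the cells they are set against.

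CD8 T cells were 3.57% of kept cells in vehicle, 6.42% in docetaxel, 4.95% (4.51 to 5.43) in ORIN1001 and 14.5% (13.8 to 15.2) in the combination, a log2 ratio of 1.55 (1.39 to 1.71). The combination stood above the other 3 libraries. All T cells together were 10.6% in ORIN1001 and 26.05% in the combination, and outside the neutrophils 31.3% and 40.2%. Within the T cells the CD8 share was 46.8% and 55.7%, while regulatory T cells, the Foxp3 lineage that restrains other T cells, were 18.6% of T cells in ORIN1001 and 14.2% in the combination. CD4 T cells without Foxp3 were 13.5% and 9.61% of T cells. Among the DCs, which take up and present antigen, plasmacytoid DCs (pDCs, known for making type I interferon) were 0.654% of kept cells in vehicle, 1.31% in docetaxel, 0.297% (0.194 to 0.435) in ORIN1001 and 1.83% (1.57 to 2.13) in the combination, a log2 ratio of 2.63 (2.02 to 3.28). Conventional type 1 DCs (cDC1), which cross-present antigen to CD8 T cells, numbered 20 cells in ORIN1001 and 76 in the combination, and type 2 DCs (cDC2) 33 and 101. Monocytes were 1.11% and 2.996%, NK cells 0.879% and 2.31%, and γδ T cells 0.605% and 1.64%. Outside the neutrophils pDCs, monocytes, NK, CD8 T and γδ T cells were also higher in the combination. There the log2 ratios of CD4 T and regulatory T cells were -0.12 (-0.45 to 0.20) and -0.034 (-0.30 to 0.24), both with intervals that held 0. B or plasma cells were lower, with 35 cells in ORIN1001 and 10 in the combination. Cells carrying epithelial markers passed the CD45 sort as 12 cells (0.137%) in ORIN1001 and 74 (0.827%) in the combination.

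**Figure D1:**
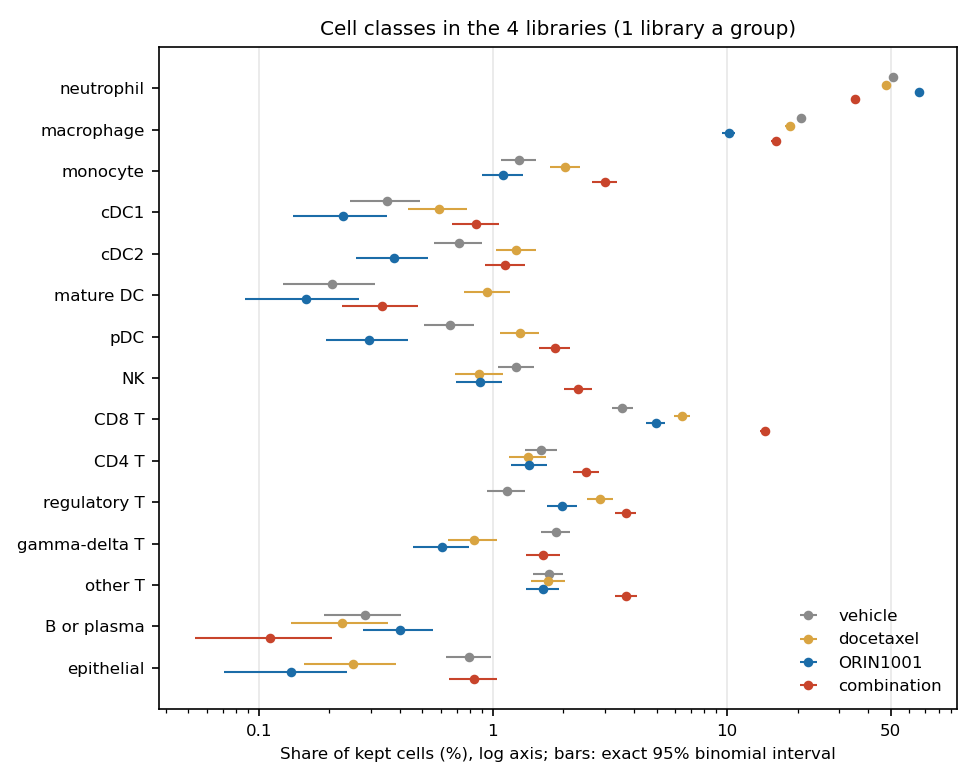
Share of kept cells in each class on a log axis, 1 point per library with the exact 95% binomial interval (vehicle grey, docetaxel yellow, ORIN1001 blue, combination red). Neutrophils were lowest in the combination (35.3%), and CD8 T cells were highest there (14.5%).

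Neutrophils differed by more genes than the other large classes. Of 9730 genes with at least 50 UMIs over both libraries, 1211 had CPM that differed at least 2-fold, 12.4%, with 726 higher in the combination (7.46%) and 485 lower (4.98%). Macrophages had 415 such genes of 11211 (3.7%) and CD8 T cells 227 of 9751 (2.33%). In the docetaxel to vehicle pair the count in neutrophils was 436 of 9787 genes. The median log2 ratio of all genes in neutrophils was 0.17, and 64.2% of genes were higher in the combination by any amount. Scaling by the median of gene ratios subtracts this 0.17 and gives 516 genes at least 2-fold higher and 622 lower, so neutrophil log2 ratios between 0 and 0.17 take the other sign under it. Neutrophils of the combination also held less RNA, with 2187.5 median UMIs per cell against 3558 in ORIN1001. Fibroblast markers in neutrophils summed to 72.2 CPM in ORIN1001 and 0.525 CPM in the combination, and epithelial markers to 31.6 and 111 CPM, and their part in the neutrophil values was not tested.

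The naming rule leaves out genes far higher in another class with at least 20 cells in both libraries. Smaller classes, among them the epithelial cells (12 in ORIN1001), were not compared. Under this rule the largest positive ratio in neutrophils was that of Edn1, which encodes the vasoconstrictor peptide endothelin 1 (ENSMUSG00000021367, chromosome 13, 42301476 to 42307990, mm10). Edn1 was found in 23 ORIN1001 neutrophils (0.397%) and 181 combination neutrophils (5.74%). It was at 1.82 CPM in vehicle, 21.4 in docetaxel, 1.11 in ORIN1001 and 57.1 in the combination, a log2 ratio of 5.69 (5.13 to 6.31). Both docetaxel libraries stood above both libraries without docetaxel. Bcl2a1a, a survival gene of the BCL2 family, was at 183 CPM in vehicle, 579.9 in docetaxel, 160.2 in ORIN1001 and 748 in the combination, with a log2 ratio of 2.22 (2.16 to 2.28). Its copies Bcl2a1d and Bcl2a1b had log2 ratios of 2.39 and 2.06, and since the 3 genes are near-identical, reads may be split between them. The other survival gene Mcl1 was at 4484 and 3881 CPM, a log2 ratio of -0.21. Tgtp1, an interferon-inducible GTPase, was at 5.25 CPM in vehicle, 34.4 in docetaxel, 35.5 in ORIN1001 and 194 in the combination, with a log2 ratio of 2.45. Bcl2l15, Dclre1b, Mllt6 and Klhl6 were the other genes named by this rule, with ratios between 2.15 and 3.62.

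The largest negative ratios under the rule included those of granule genes. Ngp, the neutrophilic granule protein (chromosome 9, 110419747 to 110423012), was at 76.7 CPM in vehicle, 1.02 in docetaxel, 204 in ORIN1001 and 0.656 in the combination, a log2 ratio of -8.28 (-9.90 to -7.06). Both docetaxel libraries were low. Ngp was found in few cells: 130 ORIN1001 neutrophils (2.24%), 1 of which held 14.9% of its UMIs, and 5 combination neutrophils. Prok2, a chemokine-like peptide made by neutrophils, was at 198 CPM in vehicle, 30.6 in docetaxel, 218 in ORIN1001 and 3.02 in the combination, a log2 ratio of -6.17. The stefin genes Stfa2, Stfa3 and Cstdc6, inhibitors of cysteine proteases, had log2 ratios of -4.24, -6.13 and -4.41. Camp, the gene of cathelicidin, was at 88.0 CPM in ORIN1001 and 2.62 in the combination, but 1 cell held 27.1% of its UMIs in ORIN1001. F10, coagulation factor X, was at 94.1 and 5.12 CPM, a log2 ratio of -4.20.

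Over the granule list, 1 of 8 measured members was higher and 7 were at least 2-fold lower, with a median log2 ratio of -2.49, where 64.2% of neutrophil genes were higher and 4.98% at least 2-fold lower. A measured member had at least 50 UMIs over both libraries. Its mean CPM of both libraries also reached 10% of that in its highest class, among classes with at least 20 cells in both. Over the 8669 neutrophil genes measured this way the median was 0.14, with 5.18% at least 2-fold higher and 5.09% at least 2-fold lower. The shares of all genes set beside member counts rest on the 50 UMIs alone, unless measured genes are named. Lcn2, an iron-binding lipocalin of secondary granules, was at 1673 CPM in vehicle, 624 in docetaxel, 1635 in ORIN1001 and 351 in the combination, a log2 ratio of -2.22 (-2.28 to -2.16). Mmp8, the neutrophil collagenase, was at 69.0, 18.5, 121 and 14.8 CPM in the same order. Mmp9, a gelatinase and also a gate marker, was the member that was higher, at 629.8 CPM in ORIN1001 and 816 in the combination. With each cell thinned to 1000 UMIs, the whole list, Mmp9 included, gave a mean of 2.94 UMIs per ORIN1001 neutrophil and 1.40 per combination neutrophil. The calprotectin genes S100a8 and S100a9, gate markers as well, made up 7.72% of neutrophil UMIs in ORIN1001 and 2.53% in the combination. Cxcr2 and Csf3r, the receptors for CXC chemokines and for G-CSF, were at 1105 and 1625 CPM in ORIN1001 and at 1198 and 1777 CPM in the combination.

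**Figure D2:**
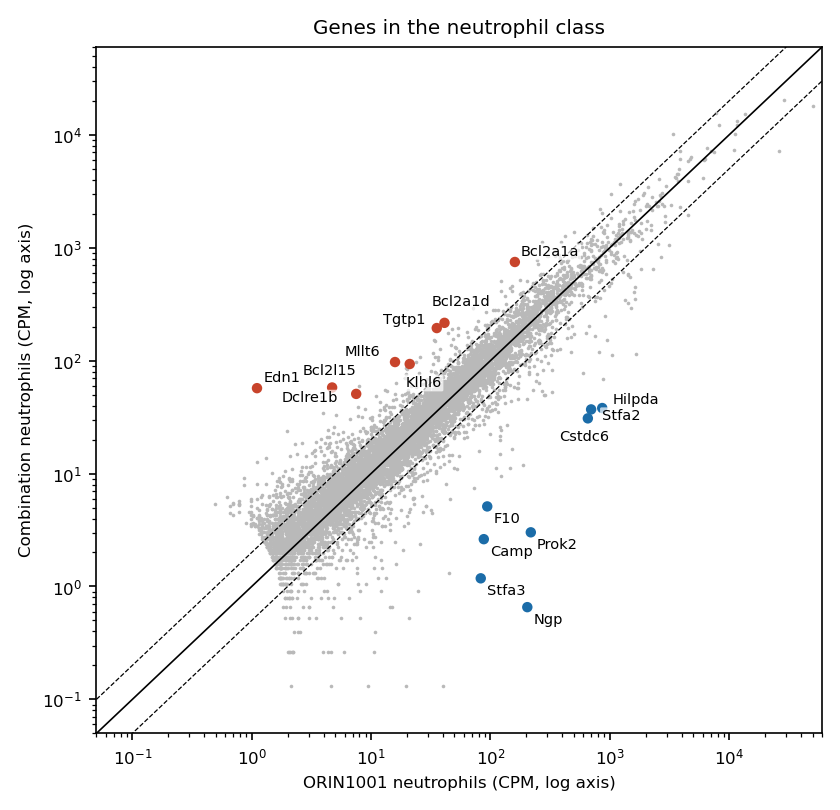
Each point is a gene in neutrophils, with its CPM in ORIN1001 and in the combination on log axes, and the dashed lines mark a 2-fold difference. The 8 largest positive (red) and 8 largest negative (blue) ratios picked by the naming rule are labelled, from Edn1 (1.11 to 57.1 CPM) to Ngp (204 to 0.656 CPM).

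Genes of the hypoxia and glycolysis list were lower in neutrophils and macrophages of the combination and mostly higher in its monocytes. In neutrophils all 14 members were at least 2-fold lower, with a median log2 ratio of -1.85 beside 0.14 over all measured genes, where 4.98% of genes were at least 2-fold lower. In the docetaxel to vehicle pair the same 14 genes were also lower, with a median of -0.76. The difference between these log2 ratios had a median of -1.12, and at 2392 cells a library matched on UMIs per cell the median in neutrophils was -1.82. Hilpda, a lipid-droplet protein induced by low oxygen (chromosome 6, 29272488 to 29275446), was at 1240.4 CPM in vehicle, 505 in docetaxel, 865 in ORIN1001 and 38.1 in the combination, a log2 ratio of -4.51 (-4.68 to -4.34). The combination lay far below the other 3 libraries. Ero1l, an oxidase of the ER, was at 1069.9, 474, 1050.4 and 112 CPM in the same order, with a log2 ratio of -3.23 (-3.33 to -3.13). Bnip3, which marks mitochondria for removal, was at 940.1, 466, 955 and 154 CPM, with a log2 ratio of -2.64. Vehicle and ORIN1001 were nearly level for Ero1l and Bnip3, docetaxel lay below them and the combination lowest. Vegfa, the vascular growth factor, had a log2 ratio of -2.33, lactate dehydrogenase Ldha -1.83, hexokinase Hk2 -2.13, the glucose transporter Slc2a1 -1.09 and adrenomedullin Adm -5.11.

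In macrophages 0 of 13 measured members were higher and 8 were at least 2-fold lower, with a median log2 ratio of -1.22 beside -0.0024 over all measured genes, where 2.44% of genes were at least 2-fold lower. Vegfa in macrophages was at 162 CPM in vehicle, 80.8 in docetaxel, 171 in ORIN1001 and 37.5 in the combination, a log2 ratio of -2.19 (-2.29 to -2.09). Both docetaxel libraries were below the other pair. Hilpda had a ratio of -2.24 there, Bnip3 -1.40 and Adm -3.14. Monocytes went the other way for most of the list, with 10 of 12 measured members higher and a median of 0.44, where 45.4% of monocyte genes were higher. Ldha in monocytes was at 1299 CPM in vehicle, 1349 in docetaxel, 1018 in ORIN1001 and 1571 in the combination, a log2 ratio of 0.63 (0.54 to 0.71). Hilpda was 1 of the 2 monocyte members that were lower, at 53.8 CPM in ORIN1001 and 38.2 in the combination. With each cell thinned to 1000 UMIs, the list gave a median of 11 UMIs per neutrophil in vehicle, 6 in docetaxel, 11 in ORIN1001 and 3 in the combination. The thinned monocytes had medians of 4, 4, 3 and 6 UMIs in the same order. Neutrophils under 1000 UMIs, 119 in ORIN1001 and 157 in the combination, were left out.

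**Figure D3:**
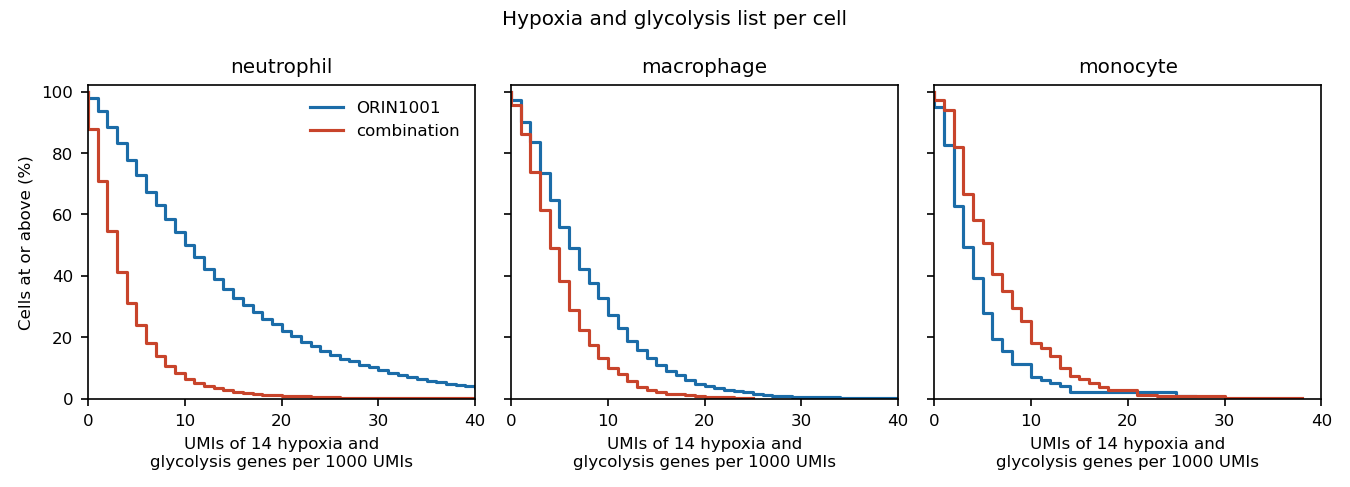
Share of cells (%) with at least a given number of UMIs of the 14 hypoxia and glycolysis genes after thinning each cell to 1000 UMIs, for neutrophils, macrophages and monocytes of ORIN1001 (blue) and the combination (red). In neutrophils the combination curve lies far to the left (medians of 3 and 11 UMIs), and in monocytes it lies to the right (medians of 6 and 3).

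Promoters of this list and of the type I interferon list are shown because members of each moved together. RefSeq promoters on GRCm38.p6 (the 250 bases before the start) were searched on both strands for ACGTG, the core of the hypoxia response element, and for GAAANNGAA, an ISRE core. ACGTG was found for 9 of 12 hypoxia members with a promoter and for 18.5% of all 27025 genes. GAAANNGAA was found for 10 of 17 interferon members and for 8.18% of all genes. The cholesterol synthesis list, given below, also moved together and was searched for TCACNCCAC. That motif was found for 1 of 6 members with a promoter and for 1.22% of all genes, and no stretch of it is shown. Capitals mark the matches, overlapping ones included, and in Bnip3 CACGTG reads the same on both strands. Each stretch of 80 bases lies upstream of the gene and runs along its strand: Ifit1 at chr19:34640754-34640833 (plus), Isg15 at chr4:156200856-156200935 (minus), Bnip3 at chr7:138909589-138909668 (minus) and Hk2 at chr6:82774482-82774561 (minus).
Ifit1: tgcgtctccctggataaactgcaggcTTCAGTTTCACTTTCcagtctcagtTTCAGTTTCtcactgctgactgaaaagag
Isg15: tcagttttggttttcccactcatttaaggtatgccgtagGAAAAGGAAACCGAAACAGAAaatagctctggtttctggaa
Bnip3: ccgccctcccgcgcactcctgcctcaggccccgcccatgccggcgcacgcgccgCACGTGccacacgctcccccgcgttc
Hk2: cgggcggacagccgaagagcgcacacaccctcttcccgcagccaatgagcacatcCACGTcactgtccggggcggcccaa
Ifit1 and Isg15 hold 3 matches each within these stretches, and the match nearest the start is on the opposite strand in Ifit1 and on the gene's strand in Isg15. A match describes letters in the window and is no measure of binding.

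Type I interferon response genes were higher in the combination, with a positive list median in 11 of 11 classes, from 0.05 in pDCs to 1.33 in NK cells. Summed over classes, 118 of the measured member values were higher and 11 lower, a gene being counted once in each class that measured it. Of all measured genes, 45.2% (monocytes) to 62.6% (neutrophils) were higher. In monocytes all 20 members were higher and 15 at least 2-fold, with a median log2 ratio of 1.15, where 2.73% of monocyte genes were at least 2-fold higher and 45.4% higher by any amount. Rsad2, the antiviral enzyme viperin, was in monocytes at 215 CPM in vehicle, 623 in docetaxel, 70.6 in ORIN1001 and 461 in the combination, a log2 ratio of 2.71 (2.42 to 3.01). Isg15, a ubiquitin-like protein whose promoter stretch is shown above, was at 661, 1818, 429 and 1642 CPM, with a log2 ratio of 1.94. ORIN1001 held the lowest and docetaxel the highest value of both genes. In macrophages 15 of 15 measured members were higher (49.2% of all genes) and 8 at least 2-fold (1.26% of all genes), with a median of 1.02, and docetaxel to vehicle had a median of 1.11. Isg15 in macrophages was at 209 CPM in vehicle, 497 in docetaxel, 234 in ORIN1001 and 509.5 in the combination. In neutrophils 16 of 17 measured members were higher, 1 of them at least 2-fold, with a median of 0.72. Over all neutrophil genes 64.2% were higher and 7.46% at least 2-fold, so the 2-fold count is near that of all genes. Docetaxel to vehicle had a larger neutrophil median of 1.06, with 17 of 17 members higher. The difference between these log2 ratios had a median of -0.40, with a counting interval below 0 for all 17, and was not tested across animals. Isg15 in neutrophils was at 2850.2, 5383, 3911 and 7158 CPM, highest in the combination. Ifit1, which binds viral RNA and whose promoter is shown too, was at 510.5, 1250.0, 716 and 1183 CPM, a log2 ratio of 0.72 (0.69 to 0.76). Ifit3 in neutrophils was at 152, 457, 276 and 514 CPM, a log2 ratio of 0.90 (0.84 to 0.96), but its near-identical neighbour Ifit3b can share its reads. Usp18, which limits interferon signalling, was the neutrophil member that was not higher, at 292 CPM in ORIN1001 and 279 in the combination.

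The list of interferon-γ response and MHC class I genes had its highest class median in neutrophils, 1.13, where 19 of 20 members were higher and 13 at least 2-fold, beside 64.2% and 7.46% of all neutrophil genes. Beside it, docetaxel to vehicle had a neutrophil median of 1.19. Cxcl9, a chemokine for CXCR3-bearing T cells, was in neutrophils at 8.17 CPM in vehicle, 12.6 in docetaxel, 19.7 in ORIN1001 and 86.9 in the combination, a log2 ratio of 2.14 (1.97 to 2.31). Its docetaxel to vehicle ratio was 0.62, and the difference between these ratios was not tested across animals. Gbp4, an interferon-inducible GTPase, was at 12.0, 49.9, 71.2 and 292 CPM, with a log2 ratio of 2.04. Cxcl10, another CXCR3 ligand, was at 598, 1651, 861 and 2012 CPM, with a log2 ratio of 1.23. Cd274, the gene of PD-L1, was the neutrophil member that was lower, at 634 CPM in ORIN1001 and 583 in the combination. Macrophages had 18 of 18 measured members higher but 1 at least 2-fold, with a median of 0.55, beside 49.2% and 1.26% of all macrophage genes. There Cxcl9 was at 33.8 CPM in vehicle, 79.3 in docetaxel, 214 in ORIN1001 and 234 in the combination, so the ORIN1001 library already held most of the level of the combination.

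**Figure D4:**
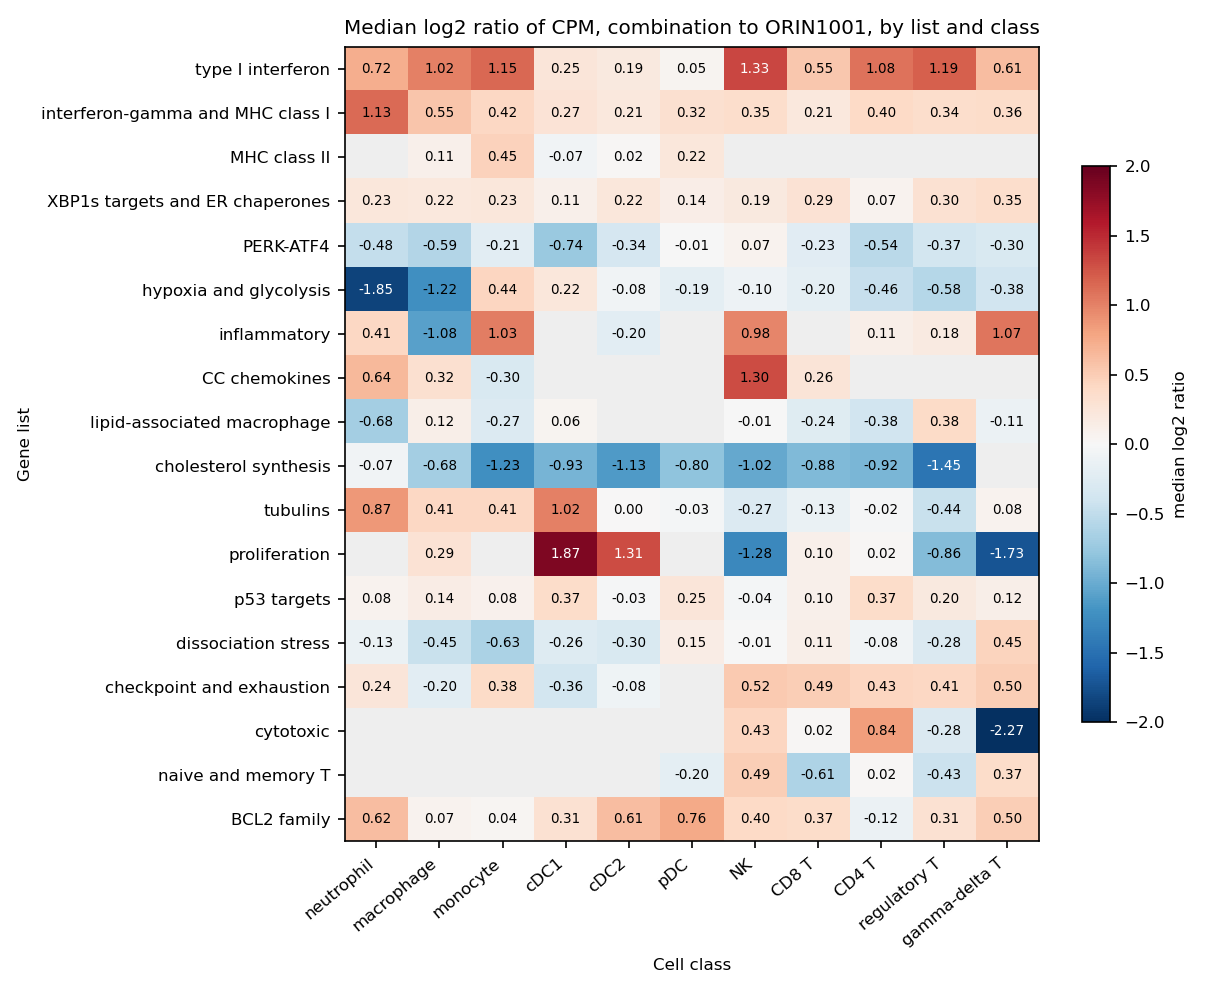
Median log2 ratio of CPM, combination to ORIN1001, of the measured members of each gene list (vertical axis) in each class (horizontal axis), with red for higher and blue for lower in the combination and grey where fewer than 3 members were measured. Cholesterol synthesis was below 0 in 10 of 10 classes and type I interferon above 0 in 11 of 11.

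Neutrophil cytokine genes were mixed. On the inflammatory list 9 of 11 measured members were higher, beside 64.2% of all neutrophil genes, with a median log2 ratio of 0.41. Nos2, the inducible nitric oxide synthase, was at 151 CPM in vehicle, 47.1 in docetaxel, 188 in ORIN1001 and 11.9 in the combination, a log2 ratio of -3.98 (-4.29 to -3.68). Cxcl2, a ligand of CXCR2, was at 12084, 15005, 7763 and 15513 CPM in the same order. Il1a was at 297 CPM in ORIN1001 and 843 in the combination, and Il1b at 11648 and 13297 CPM, a log2 ratio of 0.19. The chemokine Ccl4 was at 2012, 2791, 1214 and 3674 CPM, a log2 ratio of 1.60 (1.57 to 1.62). For Cxcl2 and Ccl4 ORIN1001 was the lowest library and the combination the highest.

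In macrophages the largest positive ratio under the naming rule was that of Clec12a, an inhibitory C-type lectin receptor (chromosome 6, 129342691 to 129365303), at 23.4 CPM in vehicle, 46.1 in docetaxel, 26.7 in ORIN1001 and 116 in the combination, a log2 ratio of 2.11 (1.97 to 2.26). The monocyte-attracting chemokines Ccl12, Ccl2 and Ccl7 had log2 ratios of 1.35, 1.32 and 1.11. Ccl2 was at 215 CPM in vehicle, 347 in docetaxel, 157 in ORIN1001 and 394 in the combination, so again both docetaxel libraries stood above the other pair. Ly6e, an interferon-inducible membrane protein, and Pltp, the phospholipid transfer protein, each had a ratio of 1.42. Saa3, an acute phase protein, was at 35.4, 8.05, 51.1 and 143 CPM, but 1 cell held 17.2% of its UMIs in ORIN1001 and 1 cell 16.7% in the combination.

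Lower in the combination macrophages were Mmp12, the macrophage elastase, and genes tied to tissue-resident or alternatively activated macrophages. Mmp12 was at 67.7 CPM in vehicle, 86.3 in docetaxel, 119.8 in ORIN1001 and 20.9 in the combination, a log2 ratio of -2.52 (-2.65 to -2.39) beside 0.35 for docetaxel to vehicle. Of the resident or alternatively activated list 2 of 7 measured members were higher and 5 at least 2-fold lower, with a median of -1.54, where 49.2% and 2.44% of macrophage genes were. F13a1, the coagulation factor XIII A chain, had a log2 ratio of -1.86, the carbonyl reductase Cbr2 -1.54 and the mannose receptor Mrc1 -1.07, whereas arginase Arg1 was at 93.6 CPM in ORIN1001 and 159 in the combination, a log2 ratio of 0.76. Mmp12 belongs to this list too, and F13a1 and Mrc1 are gate markers. On the inflammatory list 2 of 6 were higher, with a median of -1.08, and Nos2 was at 22.7 and 2.89 CPM. Pf4 (platelet factor 4) had a ratio of -1.74 and Cxcl1 -1.97. The heat shock genes Hspa1a and Hspa1b had ratios of -1.77 and -2.01, and 1 cell held 26.1% of the Hspa1b UMIs in the combination. The dissociation stress list, to which both belong, had 1 of 10 measured members higher and a median of -0.45, and its part in the other macrophage values was not tested. MHC class II genes were close to level, with a median of 0.11, and so was Spp1, the osteopontin gene, at 1745 CPM in ORIN1001 and 1995 in the combination.

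Cholesterol synthesis genes, which SREBP2 drives when sterols are low, were lower in the combination. The list median was below 0 in 10 of 10 classes, from -1.45 in regulatory T cells to -0.07 in neutrophils. Over the classes 3 measured member values were higher and 80 lower, a gene being counted once in each class that measured it. Of all measured genes, 45.2% (monocytes) to 62.6% (neutrophils) were higher. In CD8 T cells 0 of 11 members were higher and 5 were at least 2-fold lower, where 0.861% of all genes were at least 2-fold lower, and the median was -0.88 beside 0.0083 over all measured genes. Hmgcs1, an early enzyme of the pathway, was in CD8 T cells at 55.7 CPM in vehicle, 38.3 in docetaxel, 70.4 in ORIN1001 and 32.6 in the combination, a log2 ratio of -1.11 (-1.35 to -0.87). ORIN1001 was the highest library for Hmgcs1 and the combination the lowest. Monocytes had 8 of 10 measured members at least 2-fold lower, where 2.12% of genes were, and regulatory T cells 7 of 10, where 0.914% were. Sqle, squalene epoxidase, was at 48.2 and 9.36 CPM in monocytes and at 37.4 and 7.16 CPM in regulatory T cells, the last from 13 UMIs. In macrophages all 11 members were lower, 0 of them 2-fold, with a median of -0.68, where 49.2% of all macrophage genes were higher.

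CD8 T cells of the combination carried higher inhibitory receptor genes. All 9 members of the checkpoint and exhaustion list were higher, with a median log2 ratio of 0.49, where 52.1% of genes were higher by any amount. At least 2-fold higher was 1 member, beside 1.47% of all genes and 0.667% of measured genes. Docetaxel to vehicle had a median of 0.89 for the same 9 genes. Pdcd1, the gene of PD-1 (chromosome 1, 94038305 to 94052553), was at 111 CPM in vehicle, 376 in docetaxel, 316 in ORIN1001 and 596 in the combination, a log2 ratio of 0.92 (0.82 to 1.01). Ctla4 was at 152, 333, 203 and 473 CPM, with a log2 ratio of 1.22 (1.11 to 1.34), and Lag3 at 93.4, 260.4, 294 and 513 CPM, with a ratio of 0.81. For these 3 genes vehicle was the lowest library and the combination the highest. The gene of TIM-3, Havcr2, had 131 CPM in ORIN1001 and 139 in the combination, a log2 ratio of 0.08 (-0.07 to 0.24) that counting error covers. At 1000 UMIs per cell the 9 genes gave a mean of 0.863 UMIs per CD8 T cell in vehicle, 1.60 in docetaxel, 1.302 in ORIN1001 and 2.60 in the combination, against 0.422 and 0.607 in neutrophils of ORIN1001 and the combination.

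Cytotoxic genes of CD8 T cells went both ways. Of that list 5 of 9 measured members were higher and 1 was at least 2-fold lower, with a median of 0.02. Over all CD8 T genes 52.1% were higher and 0.861% at least 2-fold lower, so the share higher is near that of all genes. The member at least 2-fold lower was Gzmc, granzyme C, at 42.0 CPM in ORIN1001 and 8.11 in the combination, found in 10 and 11 cells. Granzyme B (Gzmb) was at 1025 CPM in vehicle, 1169 in docetaxel, 1221 in ORIN1001 and 1149.7 in the combination, perforin (Prf1) had a log2 ratio of 0.27 and interferon-γ (Ifng) 0.04 (-0.06 to 0.14). Batf, a factor of activated and exhausted T cells, was at 82.7, 140.3, 76.7 and 204 CPM, with a ratio of 1.41 (1.23 to 1.60). Klf2, which keeps T cells circulating, was at 694, 346, 427 and 179 CPM, with a ratio of -1.26 (-1.35 to -1.16). Batf was highest and Klf2 lowest in the combination. Tcf7, the factor of memory-like T cells, had a ratio of -0.61. The Notch targets Dtx1 and Nrarp had ratios of -1.64 and -1.41, and Tnf was at 96.8 CPM in ORIN1001 and 32.0 in the combination, with 24.6% of the ORIN1001 UMIs in 1 cell. Lysmd2, Trerf1, Ier5l and Ociad2 had the other large positive ratios, 1.38 to 1.80. Zfp36l2, an RNA-binding protein that destabilises mRNA, was at 906, 1148, 515 and 1042 CPM in CD8 T cells, and in CD4 T cells at 712, 1421, 575 and 2021 CPM, a ratio of 1.81. Macrophage markers in CD8 T cells summed to 58.5 CPM in ORIN1001 and 120.0 CPM in the combination, and their part in these values was not tested.

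**Figure D5:**
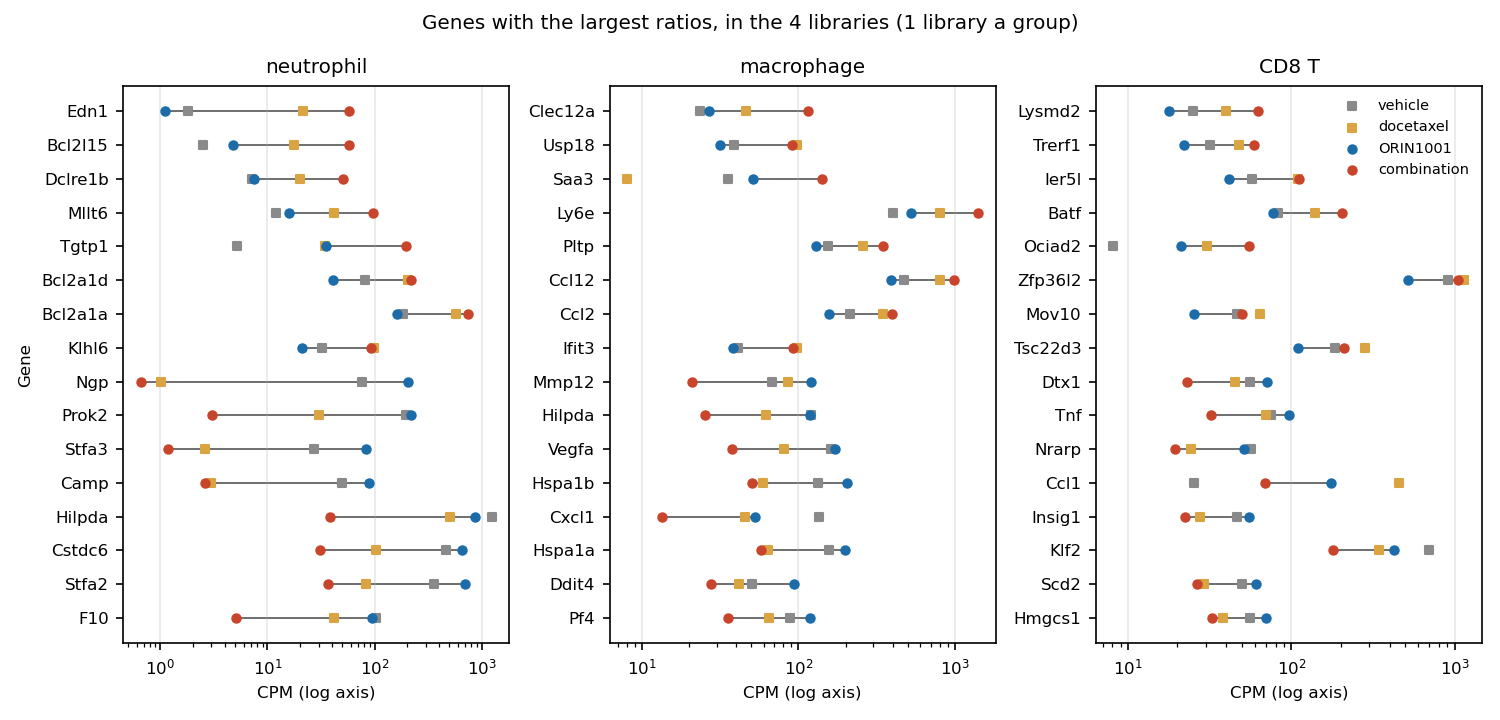
CPM on a log axis of the 16 named genes in neutrophils, macrophages and CD8 T cells in the 4 libraries, with a line joining ORIN1001 (blue circle) to the combination (red circle) and squares for vehicle (grey) and docetaxel (yellow). For Edn1 docetaxel lies on the side of the combination, and for Mmp12 it lies near ORIN1001 and vehicle.

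In NK cells (77 in ORIN1001, 207 in the combination) Gzmb and Ccl5 were higher and cell cycle genes lower. Of the cytotoxic list 7 of 10 measured members were higher, 2 at least 2-fold (2.04% of NK genes) and 1 at least 2-fold lower (1.5%), with a median of 0.43. The lowest was Gzmc, at 175 CPM in ORIN1001 and 26.2 in the combination. Gzma and Prf1 of this list are also NK gate markers, so their part in these counts is not independent of the gate. Gzmb was at 907 CPM in vehicle, 1960.3 in docetaxel, 939 in ORIN1001 and 2223 in the combination, a log2 ratio of 1.24 (1.13 to 1.35). Ccl5, a chemokine, was at 3157, 6883, 2629.7 and 6438 CPM, with a ratio of 1.29. Both genes were high in the libraries with docetaxel and low in those without. Of the proliferation list 0 of 13 measured members were higher and 8 were at least 2-fold lower, with a median of -1.28, and docetaxel to vehicle had -1.24. Over all NK genes 55.7% were higher. Mki67, the Ki-67 gene, was at 156, 59.0, 222 and 111 CPM in NK cells. Median UMIs per NK cell were 9778 in ORIN1001 and 5920 in the combination, and their part in these values was not tested. Regulatory T cells had 0 of 11 proliferation genes higher, with a median of -0.86, where 47.4% of all genes were higher. The share of regulatory T cells with any UMI of that list was nearly level at 1000 UMIs per cell. It was 27.2% in ORIN1001 and 28.2% in the combination, with means of 0.503 and 0.403 UMIs. Of the type I interferon list 12 of 12 measured genes were higher in regulatory T cells, with a median of 1.19. For CD4 T cells the same list gave 12 of 12 higher, 8 of them at least 2-fold, with a median of 1.08, where 54.3% of all genes were higher and 1.51% at least 2-fold. Cycling genes went the other way in the conventional DCs, with medians of 1.87 in cDC1 (10 of 11 higher, 8 at least 2-fold, where 56% and 3.39% of genes were) and 1.31 in cDC2 (12 of 13 higher, 10 at least 2-fold, where 54.2% and 2.69% were). The cDC1 values rest on 20 ORIN1001 cells: Stmn1, a tubulin-binding protein of dividing cells, had 3 UMIs there and 100 in the combination.

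γδ T cells (53 and 147) carried more of the interleukin-17 genes. Of that list 7 of 8 members were higher and 5 at least 2-fold, where 55.2% and 3.17% of all genes were, with a median log2 ratio of 1.05 beside 0.05 over all measured genes. Il17a was at 1786 CPM in vehicle, 1803 in docetaxel, 539.8 in ORIN1001 and 2577 in the combination, a log2 ratio of 2.26 (2.07 to 2.45). Cd163l1, a scavenger receptor of IL-17 producing γδ T cells, was at 1058, 757, 108 and 993 CPM, with a ratio of 3.20 (2.79 to 3.63). ORIN1001 was the library that stood apart, and docetaxel to vehicle had a list median of -0.07. The 5 measured cytotoxic genes were all at least 2-fold lower (2.11% of all genes), and the γδ class of ORIN1001 also carried NK markers at 2138 CPM against 208 CPM in the combination. Gzma, an NK gate marker too, was found there in 5 cells, 1 of which held 38.8% of its UMIs.

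The lists closest to the targets of the drugs were those of the ER and the tubulins. XBP1s targets and ER chaperones had a positive median in 11 of 11 classes, between 0.07 in CD4 T cells and 0.35 in γδ T cells. Over all measured genes the medians in these classes were 0.036 and 0.046. In neutrophils the list had 0.23 beside 0.14 over all measured genes. Summed over classes, 158 member values were higher and 55 lower, a gene being counted once in each class that measured it. Of all measured genes, 45.2% (monocytes) to 62.6% (neutrophils) were higher. Xbp1 itself, counted without telling spliced from unspliced mRNA, was in neutrophils at 290 CPM in vehicle, 416 in docetaxel, 257 in ORIN1001 and 350.1 in the combination, a log2 ratio of 0.45 (0.38 to 0.51). Dnajb9, an ER co-chaperone and XBP1s target, was lower in neutrophils, at 168, 132, 142 and 88.2 CPM. In macrophages Creld2, Sdf2l1 and Manf, which act in ER folding, had ratios of 0.66, 0.61 and 0.54. The PERK-ATF4 list had a positive median in 1 of 11 classes and its lowest in cDC1, -0.74, which rests on 20 ORIN1001 cells. Summed over classes the same way, this list had 16 member values higher and 34 lower. Its member Ddit4, an inhibitor of mTORC1 that low oxygen also induces, was in neutrophils at 265, 150.3, 284 and 49.5 CPM, a ratio of -2.52 (-2.68 to -2.37). Tubulins, which bind docetaxel, were higher in neutrophils for 7 of 7 measured members (median 0.87, 64.2% of all genes higher), in macrophages for 7 of 8 (median 0.41, 49.2%) and in cDC1 for 8 of 8, 4 of them at least 2-fold (median 1.02, 56% and 3.39%). They had medians of -0.13 in CD8 T cells and -0.44 in regulatory T cells. Tubb4b was in neutrophils at 110.4, 175, 108 and 283 CPM, a ratio of 1.38.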

How the data were processed

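Per the file headers, the authors' deposited matrices were written by Cell Ranger 5.0.1 and hold raw UMI counts per gene and barcode, with no normalization. Per the labels' protocols the libraries were 10x 3' libraries, and per the submitters' processing notes mm10 and Seurat 4.0.1 were used. The 4 matrices hold 32285 features, of which 40 symbols were duplicated and made unique. Each matrix belongs to 1 sample. Coordinates come from GENCODE M21, where 385 of 385 named or listed genes were found, and promoters from RefSeq.

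Cells were gated on marker genes: at least 4 of 10 neutrophil or macrophage markers, 4 of 8 for monocytes (with 2 UMIs of Ly6c2), NK cells and cDC1, 4 of 7 for pDCs, 2 of 6 for cDC2 and 3 of 7 T cell markers. T cells were split by 2 UMIs of Cd8a and Cd8b1, by Foxp3 with other regulatory markers, by γδ receptor genes and by Cd4. Gate numbers were set with the data in hand, and the members and gene lists were chosen with earlier results of these data known. In neutrophils 206 ORIN1001 cells (3.55%) and 157 combination cells (4.97%) lay at exactly the gate number, and in NK cells 15 (19.5%) and 59 (28.5%).

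The UMIs of a class were added up in each library and scaled to CPM. Log2 ratios carry the exact interval of a ratio of 2 Poisson counts, shares the Clopper-Pearson interval and the log2 ratio of shares its own counting interval. A gene was counted as past 2-fold with at least 50 UMIs over both libraries. Named genes are the 8 largest ratios each way in the 3 largest classes. In other classes with at least 100 cells in both libraries they are the 4 largest each way. The higher library had to have 30 UMIs and 50 CPM or more, and the interval could not hold 0. The mean CPM had to reach 10% of that in the highest class, among classes with at least 20 cells in both libraries. Gate markers, mitochondrial, ribosomal, haemoglobin, receptor and predicted genes were left out. List members may be named with their values. Ratios and gates were tested on simulated data. Alternatives covered doublets (Scrublet in scanpy 1.11.5), gates, filters, denominator, scaling, cell weights and matched depth. Python 3.11.15, numpy 2.4.6, scipy 1.17.1, pandas 2.3.3 and matplotlib 3.10.9 were used.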

Additional observations from a re-analysis of the deposited data

Results flagged for a closer look

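In 10 results the log2 ratio of combination to ORIN1001 and that of docetaxel to vehicle had opposite signs, with both counting intervals off 0 and both sizes at least 0.5. Each rests on 1 library a group, so the difference was not tested across animals. The NK share had a log2 ratio of 1.40 with ORIN1001 in both libraries and -0.53 without it, the γδ T share 1.44 and -1.17, and the epithelial share 2.59 and -1.65. Saa3 in macrophages had 1.48 and -2.14. Ccl1, a chemokine for CCR8-bearing cells, had -1.35 and 4.17 in CD8 T cells but 2.83 and -3.37 in regulatory T cells, and in both classes a few cells carried much of it: 1 cell held 43.3% of its CD8 T UMIs in the combination, and 1 cell 39.4% of its regulatory T UMIs. In CD4 T cells Ccl4 had 2.87 and -0.69, Ccl3 2.01 and -0.70, Susd2 1.62 and -1.10 and Cd70, the ligand of CD27, -1.82 and 2.21. Single cells held 33.9% of the Ccl3 and 62.6% of the Susd2 UMIs in the combination CD4 T cells.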

How the results depend on the processing

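With 1 library a group no spread between animals was measured, and no library could be left out. No paired analysis was possible because each group has 1 library. Class shares gave 71 values under alternatives, of which 3 reversed, all with cells outside the neutrophils as the denominator: macrophages -0.27, CD4 T cells -0.12 and regulatory T cells -0.034 as log2 ratios. The intervals of CD4 T cells (-0.45 to 0.20) and regulatory T cells (-0.30 to 0.24) held 0. With that denominator B or plasma cells stayed lower in the combination, at -2.77. The other classes tried stayed higher, at 0.50 for monocytes, 1.03 for all DCs, 1.69 for pDCs, 0.46 for NK cells, 0.36 for all T cells, 0.61 for CD8 T cells and 0.51 for γδ T cells (the joined classes were added after seeing the data). Gating after thinning to 1000 UMIs gave 2.35 for NK, 1.42 for all T, 1.80 for CD8 T, 1.25 for regulatory T and 3.30 for γδ T cells. Removing 7.01% of ORIN1001 and 7.15% of combination cells as doublets gave -0.83 for neutrophils and, with 0 combination cells set to 3, at most -3.44 for B or plasma cells. Assigning cells of several lineages to 1 class, added after seeing the data, gave -0.84 for neutrophils. Genes past 2-fold numbered 660 in neutrophils, 219 in macrophages and 67 in CD8 T cells at 200 UMIs, and 5575, 2804 and 3543 with no filter. At matched UMIs per cell CD8 T cells had 150 genes, 60 higher and 90 lower against 143 and 84, with 434 cells a library and 8671 genes counted, and the cause was not tested. In neutrophils the type I interferon median was 0.80 over all members, 0.72 over the measured members of the report (a limit added after seeing the data) and 0.63 under median-of-ratios scaling. The interferon-γ median was 0.96 under that scaling, 1.04 with every cell weighing the same and 1.21 at matched depth, and the hypoxia median -2.01 under that scaling. In macrophages the hypoxia median was -1.31 over all members, -1.42 with every cell weighing the same and -1.22 over the measured members. Among other list medians 3 of 592 values reversed: resident macrophage genes in neutrophils (1.39) and naive T genes in neutrophils (0.066) with stricter gates, and MHC class II in CD4 T cells (0.053) with every cell weighing the same. Of 377 values for the 64 named genes 80 moved and 0 reversed. These genes were picked for large ratios in the same libraries, so the lack of reversals is no independent check. The difference between docetaxel with and without ORIN1001 was recomputed for 12 list and class pairs, only with doublets removed and with stricter gates. All 24 values stayed within the median half-width of the members' counting intervals around the main value. Scaling, cell weights and matched depth were not tried for it.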

Other observations

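In regulatory T cells the largest ratios rested on few cells. Nrgn, the neurogranin gene, was at 0.912 CPM in ORIN1001 and 56.7 in the combination, with 45.6% of the combination UMIs in 1 cell, and Hspa1a at 297 and 2.75 CPM, with 51.2% of the ORIN1001 UMIs in 1 cell. Gzmc was at 56.5 and 0.551 CPM there, with 98.4% in 1 cell. Ifi44, an interferon response gene, was at 22.6 CPM in vehicle, 70.8 in docetaxel, 7.29 in ORIN1001 and 52.9 in the combination. Havcr2 was at 30.1 CPM in ORIN1001 and 76.0 in the combination, a log2 ratio of 1.34 (0.78 to 1.93). Ctla4 was at 1308 and 1988 CPM, a ratio of 0.60, but it is a gate marker of this class. In CD4 T cells Ccr6, the receptor for CCL20, was at 115 CPM in ORIN1001 and 27.2 in the combination, a log2 ratio of -2.07. Igfbp4 was at 109 and 32.4 CPM there, found in 13 and 7 cells.

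Monocytes differed in further groups. MHC class II was higher for 6 of 7 members (median 0.45), where 45.4% of all monocyte genes were higher. Cd74, the invariant chain, was at 6740 CPM in vehicle, 7285 in docetaxel, 10013 in ORIN1001 and 13718 in the combination, so both ORIN1001 libraries stood above both others. The resident or alternatively activated list had 0 of 5 measured members higher, with a median of -1.20. Mrc1 was at 65.7 CPM in ORIN1001 and 28.6 in the combination. Chil3 and F13a1 of this list are monocyte gate markers, and Mrc1 is a macrophage gate marker. Early response genes were lower, with Egr1 at 946 and 405 CPM and a dissociation stress median of -0.63, and the part of that list in the monocyte values was not tested.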
